A study of Rattus norvegicus with 5 samples.

Results

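In total, 10 genes of the thioredoxin and antioxidant systems were followed over the arrays of 3 cell populations: *Txnip*, *Txn1*, *Txnrd1*, *Hmox1*, *Gclc*, *Gclm*, *Nqo1*, *Sod2*, *Cat* and *Gpx1*. Every probe set whose platform annotation gave a single one of these symbols, current or older, was taken, which found 19 of the 8740 probe sets analysed and 9 of the 4734 genes represented. No probe set carried the symbol *Txn1*, the gene of thioredoxin itself. *Txnip* was selected on its signals on these same arrays, so its values are given as a description without a test. The other genes were added for their function, with earlier results of these arrays known, and 17 probe sets of 8 genes among them were tested. All RNA came from primary cultures of the hypothalamus of Wistar rat embryos at day 17.

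GFP+ cells had taken up a plasmid in which the *Trh* promoter drives green fluorescent protein (GFP) 24 hours after seeding and were sorted for green fluorescence 48 hours later. GFP+/- cells came from cultures given the same plasmid and went through the sorter with no gate set, so they hold GFP-positive and GFP-negative cells together. NT cells were never transfected, and the labels do not say that they passed the sorter. There were 2 Affymetrix rat oligonucleotide arrays of GFP+, 2 of GFP+/- and 1 of NT RNA, from pools of 6 experiments for GFP+ and 3 for each of the others. As the paper describes it, both arrays of a population received aliquots from a single RNA pool, although the sample labels call them biological replicates. Every p below therefore measures the spread between arrays only. The plasmid is carried transiently, and in these pooled RNAs fewer cells of a type and less RNA per cell cannot be told apart.

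Thioredoxin is a small protein that reduces disulfide bonds in other proteins and is itself reduced by thioredoxin reductase at the expense of NADPH. The product of *Txnip* binds reduced thioredoxin and holds it back, and as a member of the arrestin family it also lowers glucose entry into cells. Glutathione is made by a ligase with a catalytic and a modifier subunit (*Gclc* and *Gclm*), and glutathione peroxidase uses it to remove peroxides. Many of these enzyme genes carry antioxidant response elements, the DNA sites of the transcription factor NRF2.

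A RefSeq promoter window of assembly GRCr8, running from 250 bases before to 50 bases after an annotated start, was given for 8 of the 10 genes. There were 9 windows in all because a pair of starts was given for *Txnrd1*. Both *Txnrd1* windows lie inside the gene, whose 5' end on the minus strand is at 22802553. No window was given at that end, so the printed *Txnrd1* window stands before an internal start. None was given for *Txnip* or *Hmox1*. The core of the antioxidant response element, searched as TGACNNNGC on both strands, stood in 3 of the 9 windows, those of *Gclm*, *Sod2* and one start of *Txnrd1*, and in 12.1% of all 33469 windows of the genome. The windows of *Txnrd1* and *Gclm* are printed up to the start because the mean log2 signals of their brightest probe sets in GFP+ cells lay on opposite sides of those in GFP+/- cells. Capitals mark the match, which in both reads on the opposite strand to the gene and begins 78 bases before the start in *Txnrd1* and 172 bases before it in *Gclm*.
Txnrd1 (GRCr8 chr7:22755905-22756154, minus strand): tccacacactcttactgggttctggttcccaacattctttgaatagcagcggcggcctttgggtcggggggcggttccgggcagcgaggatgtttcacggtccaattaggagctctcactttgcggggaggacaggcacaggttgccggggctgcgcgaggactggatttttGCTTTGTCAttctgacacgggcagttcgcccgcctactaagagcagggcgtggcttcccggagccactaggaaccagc
Gclm (GRCr8 chr2:213031885-213032134, plus strand): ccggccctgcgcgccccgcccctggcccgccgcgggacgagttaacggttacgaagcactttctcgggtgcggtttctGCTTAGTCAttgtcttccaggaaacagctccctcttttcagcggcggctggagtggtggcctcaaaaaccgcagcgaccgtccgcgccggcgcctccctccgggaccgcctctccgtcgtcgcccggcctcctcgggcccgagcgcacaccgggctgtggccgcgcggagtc
The match in *Sod2* reads GCAGGGTCA and begins 35 bases before the start. An E-box of the form CACGTG, a palindrome, stood in 1 of the 9 windows, that of *Gpx1*, and in 6.4% of all windows. The windows of *Txn1*, *Gclc*, *Nqo1*, *Cat* and the other *Txnrd1* start held neither motif, which says only that these letters are not in these windows.

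Signals are MAS 5.0 values, a linear intensity that the authors computed for each probe set and scaled by one factor per array, and they cannot be compared between probe sets. Medians over all probe sets were 113.6 and 116.2 in GFP+ cells, 102.3 and 103.9 in GFP+/- cells and 111.6 in NT cells. The median log2 difference over all probe sets was 0.13 in GFP+ over GFP+/-, 0.06 in GFP+ over NT and -0.09 in GFP+/- over NT cells. Of the 19 probe sets, 9 were among the brightest 41% by mean signal over the 5 arrays, with a limit of 175.3, and 10 were below it and are called dim. The 3' to 5' signal ratio of the *Gapdh* control, a sign of how complete the RNA was, was 14.6 and 17.6 in GFP+ and 12.7 and 14.2 in GFP+/- against 5.45 in NT cells. Summed signals of 4 erythroid markers were 7030 and 7230 in GFP+ and 15311 and 10626 in GFP+/- against 1002 in NT cells. Those of 10 fibroblast and matrix markers were 17542 and 26243 in GFP+ cells, 51693 and 51111 in GFP+/- cells and 22955 in NT cells, and each of the 10 was lower on both GFP+ than on both GFP+/- arrays. Those of 12 neuronal markers were 30221 and 24834, 18639 and 20420, and 37737 in GFP+, GFP+/- and NT cells, and those of 7 microglial markers were 750 and 608, 396 and 299, and 602. In the same order, 7 astrocyte markers summed to 26528 and 29046, 30266 and 26495, and 20763. For 5 oligodendrocyte markers the sums were 1470 and 1422, 1434 and 1313, and 1184. For 5 endothelial and mural markers they were 1992 and 3717, 9011 and 11233, and 1591. In GFP+ over GFP+/- cells *Acta2* (-2.29 on the log2 scale) and *Tagln* (-1.36) were lower. *Pecam1* (0.03), *Vwf* (0.23) and *Flt1* (0.13) were not. For 2 choroid plexus and ependyma markers the sums were 2998 and 5149, 18223 and 17311, and 3678. Of these, *Ttr* was lower in GFP+ than in GFP+/- cells (-2.19), while the dim *Kl* overlapped (-0.03). Each of the 7 microglial markers was dim, and their lowest signal was 1.58. The brightest *Trh* probe set, the gene whose promoter drove the sort, was dim, with signals of 115.1 and 140.5 in GFP+ cells, 108.9 and 105.8 in GFP+/- cells and 96.6 in NT cells (GFP+ over GFP+/- 0.24 on the log2 scale, SE 0.29, limma adjusted p = 0.761). Its log2 difference in GFP+ over NT cells was 0.40. A dimmer *Trh* probe set went the other way, with -0.15 in GFP+ over GFP+/- and -1.02 in GFP+ over NT cells.

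*Txnip* (GRCr8 chr2:186781933-186785736) was far brighter in the sorted cells than in either other population. Its brighter probe set gave signals of 1287 and 1219 on the GFP+ arrays, against 218 and 158.5 on the GFP+/- arrays and 179.2 on the NT array. Both GFP+ arrays were high and close to each other, and the other 3 arrays lay together below them with a wide gap. The averaged signal was 1253 ± 47.9 in GFP+ and 188 ± 42.1 in GFP+/- cells (SD, n = 2 arrays each), a ratio of 6.65, and the ratio over NT cells was 6.99. Even the lower GFP+ array was 5.59 times the higher GFP+/- array and 6.80 times the NT array. On the log2 scale *Txnip* was 2.75 above GFP+/- and 2.81 above NT cells, with a pooled SD of 0.23 between arrays of a population. GFP+/- and NT cells differed by 0.05 on that scale, and the NT array lay between the 2 GFP+/- arrays.

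By log2 difference of GFP+ over GFP+/- cells this probe set stood in place 31 of 8740, and in place 4 of the 3583 brightest. The brightest are picked by a mean that includes the GFP+ arrays, so high GFP+ signals help a probe set to enter. Over NT cells it stood in place 112 of 8740 and 52 of the 3583 brightest. A second *Txnip* probe set was dim and gave signals of 77.01 and 75.31 in GFP+ cells, 34.5 and 31.2 in GFP+/- cells and 42.4 in NT cells. It too was highest on both GFP+ arrays, with a smaller ratio of 2.32 over GFP+/- and 1.79 over NT cells. The NT signal of this probe set lay above both GFP+/- signals, with a log2 difference of -0.37 in GFP+/- over NT cells.

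**Figure D1:**
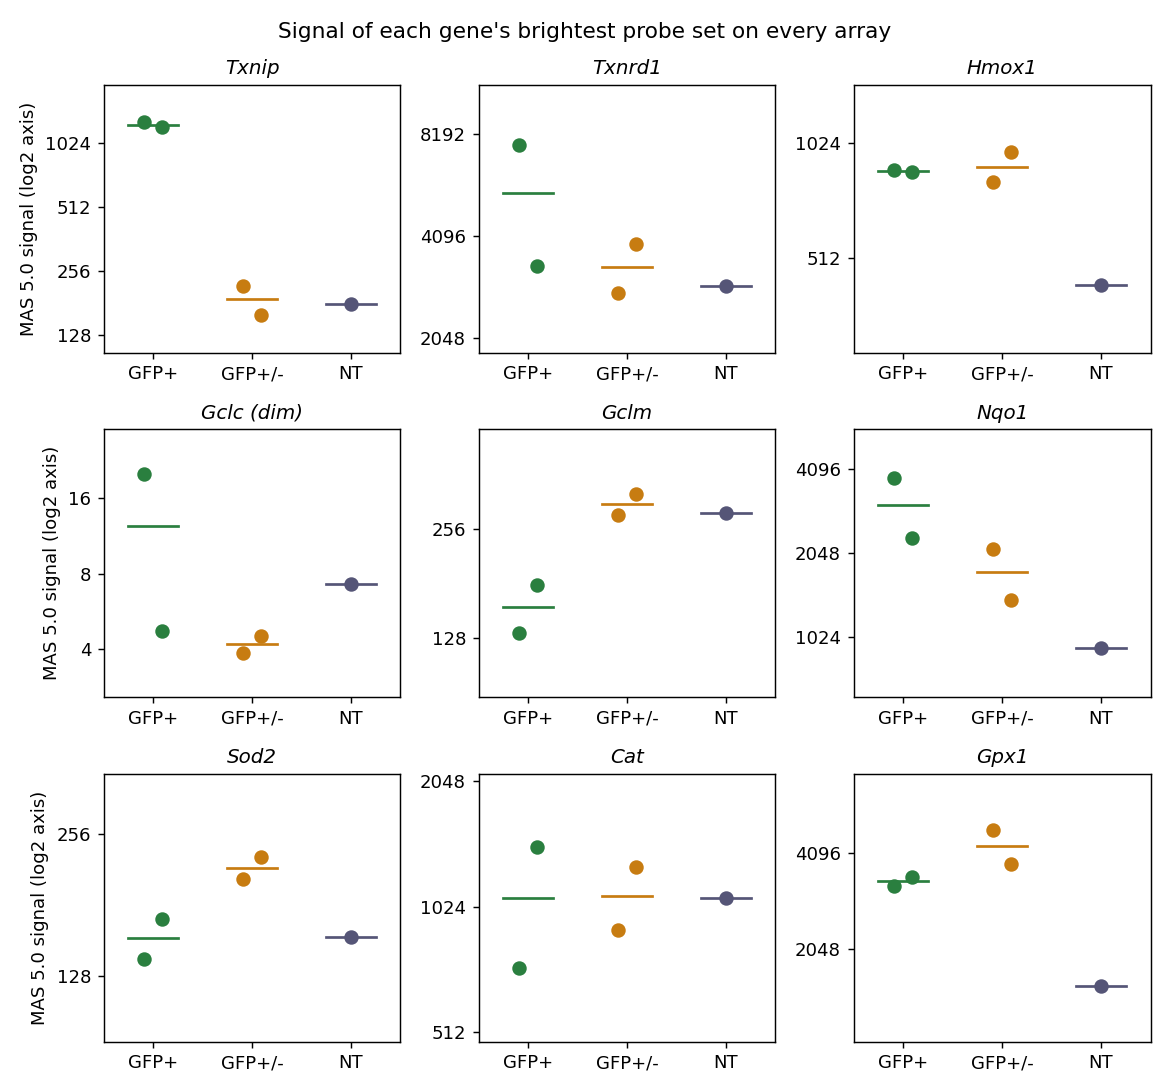
MAS 5.0 signal (vertical axis, log2 scale, one range per panel) of the brightest probe set of each of 9 genes in GFP+, GFP+/- and NT cells; each point is one array and each line the mean of a population. The *Txnip* points of GFP+ cells lie at 1287 and 1219, apart from the other 3 arrays, while *Gclm* lies lowest in GFP+ and *Hmox1* and *Gpx1* lowest in NT cells.

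The pattern of *Txnip* over the 5 arrays was compared with that of 2950 bright probe sets that have a single gene name, as the Euclidean distance between log2 signals centred on each probe set's own mean, a description with no test. The median distance was 3.07, and the dim second *Txnip* probe set lay at 1.89. The nearest gene was *Mdm2*, which encodes the ubiquitin ligase of p53, at a distance of 0.58. Its signals were 1180 and 1519 in GFP+ cells, 157.2 and 155.7 in GFP+/- cells and 153.2 in NT cells, so it too was high on the GFP+ arrays alone. *Klf4*, a zinc finger transcription factor, followed at 0.70 with 749.4 and 580.7 in GFP+ cells, 176 and 115 in GFP+/- cells and 154.1 in NT cells.

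The other 3 were *Ddit3* at 1.13, *Atf3* at 1.201 and *Ppp1r15a* at 1.23, which encode the transcription factors CHOP and ATF3 and the phosphatase subunit GADD34. *Ddit3* had signals of 1331 and 751.3 in GFP+ cells, 369.3 and 237.1 in GFP+/- cells and 199.7 in NT cells. *Atf3* had 1172 and 673.2, 242.2 and 277.5, and 162.5 in the same order of populations. *Ppp1r15a* had 379.3 and 463.5, 118.7 and 144.5, and 77.6. In each of these 3 genes both GFP+/- arrays lay above the NT array, and the mean of GFP+/- over NT cells was 0.57 in *Ddit3*, 0.67 in *Atf3* and 0.76 in *Ppp1r15a* on the log2 scale. That difference was 0.05 in *Txnip*, 0.03 in *Mdm2* and -0.12 in *Klf4*. All 6 genes share the gap between the GFP+ arrays and the rest, which follows from picking the others for nearness to *Txnip* on these same arrays. The limit of brightness, 175.3, also favours it, as the mean includes the GFP+ arrays. *Mdm2* and *Ppp1r15a* were under that limit on every GFP+/- and NT array and counted as bright only through their GFP+ signals.

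**Figure D2:**
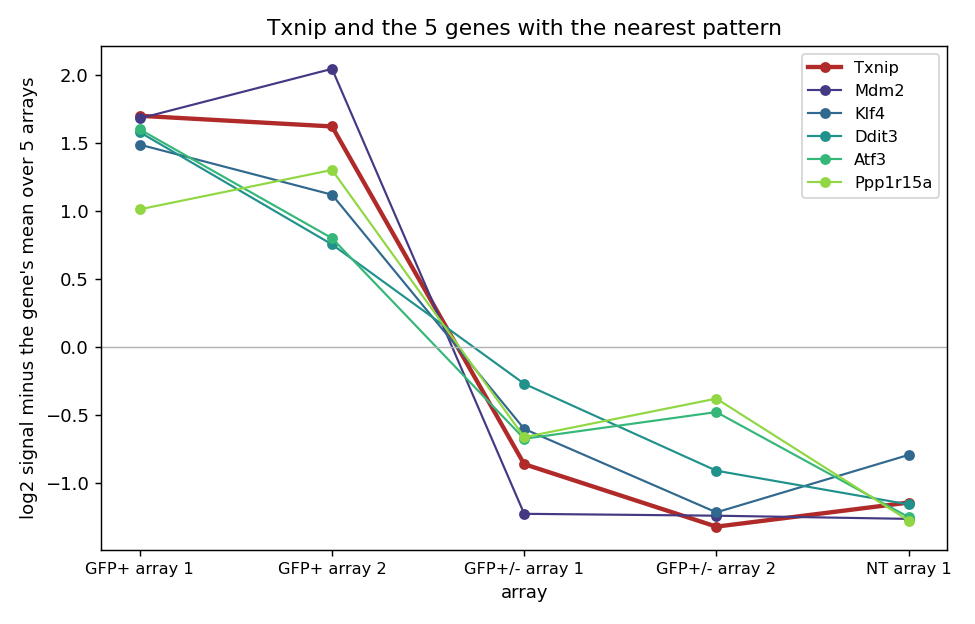
Log2 signal minus the gene's own mean over the 5 arrays (vertical axis) on each array (horizontal axis) for *Txnip* in red and the 5 genes at the smallest distance from it. All 6 lines are high on both GFP+ arrays and low on the other 3.

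Thioredoxin reductase 1, the enzyme that recycles thioredoxin, is encoded by *Txnrd1* (GRCr8 chr7:22717620-22802553). Its brighter probe set gave 7622 and 3346 in GFP+ cells, 2787 and 3881 in GFP+/- cells and 2918 in NT cells. One GFP+ array stood above all others, but the second lay below one GFP+/- array, so the populations overlapped and the GFP+ arrays differed by 2.28-fold. The log2 difference of GFP+ over GFP+/- cells was 0.62 (SE 0.41, limma adjusted p = 0.569), and over NT cells it was 0.79 (SE 0.50, adjusted p = 0.424). The dim probe set gave 123.2 and 125.7 in GFP+ cells, 73.1 and 38.0 in GFP+/- cells and 69.1 in NT cells. Here both GFP+ arrays were above all others, with a log2 difference of 1.24 over GFP+/- cells (SE 0.43, adjusted p = 0.298). Neither probe set passed the test.

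The subunits of the glutathione-making ligase gave no common picture. *Gclm*, the modifier subunit (GRCr8 chr2:213032135-213052192), was dimmer in the sorted cells in its brightest probe set. Signals were 132.3 and 179.2 in GFP+ against 278.9 and 320 in GFP+/- and 282.8 in NT cells, with no overlap. The second probe set gave 78.9 and 122.8 in GFP+ cells, 173.8 and 174.2 in GFP+/- cells and 184.3 in NT cells, again with both GFP+ arrays lowest. The last was dim and nearly level, between 30.7 and 34.5 on all 5 arrays.

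The log2 difference of *Gclm* in GFP+ over GFP+/- cells was -0.96 in the brightest probe set (SE 0.25, limma adjusted p = 0.221) and -0.82 in the second (SE 0.32, adjusted p = 0.343). Over NT cells these were -0.88 (SE 0.31, adjusted p = 0.156) and -0.91 (SE 0.39, adjusted p = 0.235), so *Gclm* did not pass in either comparison, nor among the brightest 41% alone (GFP+ over GFP+/-, adjusted p = 0.0753). GFP+/- and NT cells differed by 0.08 in the brightest probe set. *Gclc*, the catalytic subunit, had a single dim probe set with signals of 19.9 and 4.76 in GFP+ cells, 3.88 and 4.50 in GFP+/- cells and 7.29 in NT cells. Its GFP+ arrays differed by 4.19-fold, and one of them lay close to the GFP+/- arrays and below the NT array (log2 difference 1.22 over GFP+/- cells, SE 0.76, adjusted p = 0.547).

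*Nqo1* encodes a quinone reductase that uses NADH or NADPH and is a known target of NRF2. Its brighter probe set was highest in GFP+ cells, with signals of 3786 and 2308 in GFP+ cells, 2120 and 1386 in GFP+/- cells and 930.6 in NT cells. The populations followed each other without overlap, although the lower GFP+ array was only 1.09 times the higher GFP+/- array. The log2 difference was 0.79 in GFP+ over GFP+/- cells (SE 0.32, limma adjusted p = 0.358), 1.67 in GFP+ over NT cells (SE 0.39, adjusted p = 0.0592) and 0.88 in GFP+/- over NT cells (SE 0.39, adjusted p = 0.24). With limma fitted anew to the brightest 41% alone, the prior for the spread between arrays also came from those probe sets only. In that fit GFP+ cells passed against NT cells (limma adjusted p = 0.00541) and not against GFP+/- cells (adjusted p = 0.154). The dim *Nqo1* probe set went the other way against NT cells, with 8.79 and 40.0 in GFP+ cells, 5.29 and 16.6 in GFP+/- cells and 46.5 in NT cells.

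*Hmox1* and *Gpx1* rose in both transfected populations over NT cells. *Hmox1* encodes heme oxygenase 1, which breaks down heme. Its brighter probe set gave 867.9 and 861.1 in GFP+ cells, 806.2 and 967.6 in GFP+/- cells and 433.4 in NT cells. The GFP+ arrays lay between the GFP+/- arrays, so sorted and unsorted cells overlapped (log2 difference -0.03, SE 0.18, limma adjusted p = 0.959). Both populations were well above the NT array, by 1.00 in GFP+ (SE 0.21, adjusted p = 0.0492) and 1.03 in GFP+/- cells (SE 0.21, adjusted p = 0.0432). The dim probe set varied between 8.06 and 23.7 over all arrays, and its arrays of one population differed by up to 2.94-fold.

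*Gpx1* encodes the cytosolic glutathione peroxidase that reduces hydrogen peroxide. Its brightest probe set gave 3235 and 3454 in GFP+ cells, 4846 and 3796 in GFP+/- cells and 1577 in NT cells. The NT array was lowest and the GFP+/- arrays highest, with no overlap. GFP+ cells were above NT cells by 1.08 on the log2 scale (SE 0.23, limma adjusted p = 0.0481) and GFP+/- cells by 1.44 (SE 0.23, adjusted p = 0.0244). The difference of GFP+ over GFP+/- cells was -0.36 (SE 0.19, adjusted p = 0.48). The second bright probe set ordered the populations likewise, with 2370 and 2530 in GFP+ cells, 3232 and 2671 in GFP+/- cells and 1991 in NT cells, but its differences over NT cells were 0.30 in GFP+ (adjusted p = 0.484) and 0.56 in GFP+/- cells (adjusted p = 0.181). The last probe set was dim, between 6.91 and 14.7 on all arrays. The names of both bright probe sets mark them as ones whose probes may match more than one similar transcript, as is so for those of *Nqo1* and *Sod2*.

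The calls of *Hmox1* and *Gpx1* against NT cells lay close to the threshold of 0.05. With any 1 GFP+ or GFP+/- array left out they were lost, in fits with 1 residual degree of freedom in place of 2. The log2 differences moved less. In GFP+ over NT cells they were then 0.99 to 1.002 for *Hmox1* and 1.04 to 1.13 for *Gpx1*. In GFP+/- over NT cells they were 0.895 to 1.16 and 1.27 to 1.62. With each array scaled to the same median, GFP+ over NT cells gave 0.0539 and 0.0548, and with a prior without the intensity trend 0 of the 17 probe sets were called. With the probe sets of a gene averaged, the dim ones included, the log2 differences of GFP+ and GFP+/- over NT cells were 0.59 and 0.61 in *Hmox1* (adjusted p = 0.583 and 0.553) and 0.55 and 0.54 in *Gpx1* (adjusted p = 0.217 and 0.22), so these calls were lost too. The order of the populations in *Gpx1* was that of the globin genes *Hbb* and *Hbb-b1*, which make up most of the summed erythroid signal, highest in GFP+/- and lowest in NT cells. Of the other erythroid markers, *Alas2* was highest in GFP+ cells and *Slc4a1* was nearly level, between 377.8 and 418.6 on all 5 arrays. The *Gapdh* 3' to 5' ratio was also lowest in NT cells, and the part of these measures in the results was not tested. NT cells differ from the other populations in transfection and carry a single array.

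*Sod2* and *Cat* encode the mitochondrial superoxide dismutase and catalase, which removes hydrogen peroxide in peroxisomes. *Sod2* gave 139.1 and 168.9 in GFP+ cells, 205 and 229 in GFP+/- cells and 154.9 in NT cells. Both GFP+ arrays were below both GFP+/- arrays and on either side of the NT array. The log2 difference in GFP+ over GFP+/- cells was -0.50 (SE 0.25, limma adjusted p = 0.456), and in GFP+/- over NT cells it was 0.48 (SE 0.31, adjusted p = 0.417). *Cat* gave 728.4 and 1423 in GFP+ cells, 899 and 1275 in GFP+/- cells and 1073 in NT cells in its brightest probe set. The GFP+ arrays enclosed all others, and the difference over GFP+/- cells was -0.07 (SE 0.36, adjusted p = 0.951). The dim *Cat* probe sets disagreed with each other against NT cells, with -1.002 in one (adjusted p = 0.303) and 1.71 in the other (adjusted p = 0.243) for GFP+ cells.

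**Figure D3:**
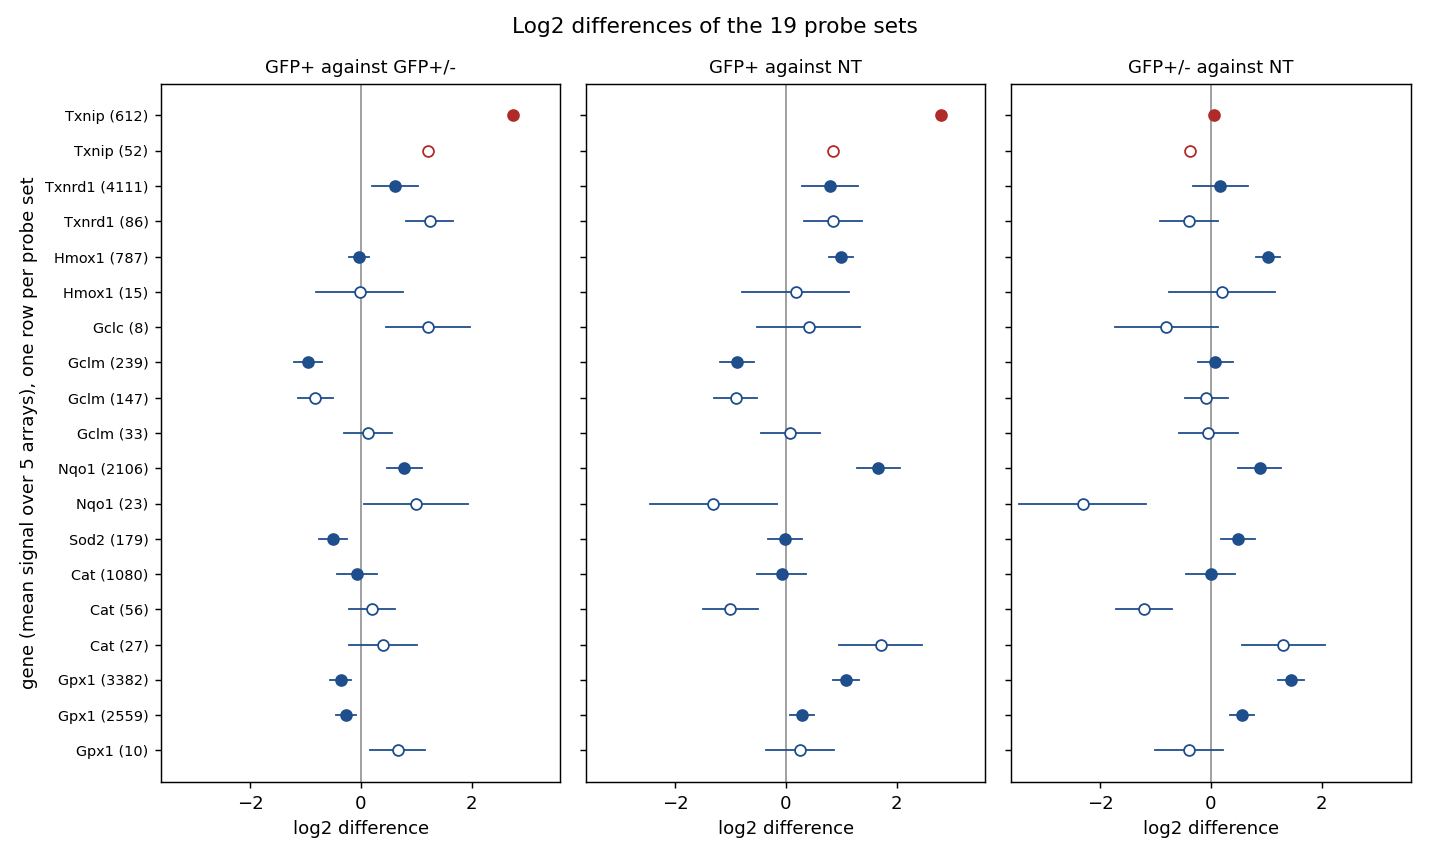
Log2 difference (horizontal axis) of each of the 19 probe sets in GFP+ over GFP+/- (left), GFP+ over NT (middle) and GFP+/- over NT cells (right), one row per probe set with its mean signal over the 5 arrays. Filled points are among the brightest 41%, open points are dim, bars are ± 1 SE from limma, and *Txnip* in red has no bar because it was not tested; the brightest probe sets of *Hmox1* and *Gpx1* lie right of 0 against NT cells and that of *Gclm* left of 0 in GFP+ cells.

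In GFP+ over GFP+/- cells 0 of 17 probe sets passed limma, beside 0.00% of all 8740, and an unadjusted p under 0.05 was found in 4 of the 17 and in 1215 of all. Among the brightest 41% alone, 0 of 8 passed, beside 4.02% of all. In GFP+ over NT cells 2 of 17 were called higher, beside 4.38% of all, and 0 lower, beside 4.06%. In GFP+/- over NT cells 2 of 17 were called higher, beside 4.20%, and 0 lower, beside 5.03%. An unadjusted p under 0.05 in either direction was found in 4 of 17 in GFP+ over NT cells and in 3 of 17 in GFP+/- over NT cells, and in 2126 and 2178 of all probe sets. The called probe sets were the same in both comparisons, which share the NT array, one each of *Hmox1* and *Gpx1*.

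Without *Txnip*, 5 of 17 probe sets had both GFP+ arrays above both GFP+/- arrays, beside 30.4% of all probe sets, and 5 of 17 had both below, beside 15.4%. Both *Txnip* probe sets, on whose signals that gene was chosen, add to the first count and make it 7 of 19. With each array scaled to the same median, 4 of 19 were above and 6 of 19 below, but no share over all probe sets was taken with that scaling. Among the brightest 41% and without *Txnip*, 1 of 8 was above, that of *Nqo1*, beside 31.2%. Below were 4 of 8, from *Gclm*, *Sod2* and both bright probe sets of *Gpx1*, beside 20.9%. Brightness is a mean over all 5 arrays, and *Sod2*, at 179.4, passed the limit of 175.3 only through its GFP+/- arrays. Its means were 154 in GFP+, 217 in GFP+/- and 154.9 in NT cells. The GFP+ mean of *Gclm*, 155.8, was also under the limit, so this count is no support for lower signals in GFP+ cells. A ratio of averaged signals above 2 was found in 3 of 17 without *Txnip*, all dim, beside 8.89% of all. A ratio below 1/2 was found in 0 of 17, beside 4.18%. The median over the 17 probe sets of the 8 other genes was 0.12 in GFP+ over GFP+/- cells, beside 0.13 over all probe sets. With each of these genes read from its brightest probe set it was -0.05.

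Of 96 further genes of the pathway in 6 lists, 64 had a probe set. In GFP+ over GFP+/- cells 0 of the 64 passed limma, with an unadjusted p under 0.05 in 9, and their median log2 difference was 0.02. Both GFP+ arrays were above both GFP+/- arrays in 15 of 64, beside 30.4% of all probe sets and 31.2% of the brightest 41%. They were below them in 15, beside 15.4% and 20.9%. Of the 64 genes, 44 were among the brightest 41%, so neither share comes from a set of the same brightness. The 7 measured genes of the thioredoxin and peroxiredoxin system had a median of -0.02. Mitochondrial thioredoxin, encoded by *Txn2*, gave 1868 and 1791 in GFP+ cells, 1837 and 1638 in GFP+/- cells and 1584 in NT cells, a difference of 0.08 over GFP+/- cells (adjusted p = 0.872). *Prdx2*, a cytosolic peroxidase that thioredoxin reduces, gave 5043 and 5381, 7755 and 6855, and 5693 (-0.48, adjusted p = 0.324), with both GFP+ arrays below both GFP+/- arrays.

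The 17 measured genes of glutathione synthesis and use had a median of -0.13, and 10 of them were among the brightest 41%. Both GFP+ arrays were above both GFP+/- arrays in 1 of the 17, beside 30.4% of all probe sets and 31.2% of the brightest. Both were below in 7, beside 15.4% and 20.9%. Some of these gaps were narrow, as in *Gstm2* (237.3 and 260.3 in GFP+ against 276.7 and 261.5 in GFP+/- cells). Another was the dim *Ggt1* (8.28 and 7.89 against 8.35 and 8.58). *Gpx4*, which reduces lipid peroxides, was among the 7, with 1183 and 1045 in GFP+ cells, 1839 and 1609 in GFP+/- cells and 995.4 in NT cells (GFP+ over GFP+/- -0.63, adjusted p = 0.224). *Gstm1*, a glutathione transferase, was the one above, with 3908 and 4443, 2912 and 3568, and 2577 (0.37, adjusted p = 0.456). The transferases *Gstp1* (-0.34, adjusted p = 0.492) and *Gsta4* (-0.30, adjusted p = 0.636) did not pass either. The 13 genes of NRF2 and NADPH supply had a median of 0.13. *Nfe2l2*, the gene of NRF2, gave 490.3 and 187.8 in GFP+ cells, 151.9 and 245.9 in GFP+/- cells and 418.3 in NT cells, with overlapping arrays. *Ephx1*, a microsomal epoxide hydrolase, was higher on both GFP+ arrays at 646.3 and 231.2, against 158.3 and 115.7 in GFP+/- and 125.1 in NT cells, but did not pass (1.51, SE 0.51, adjusted p = 0.288).

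The 11 genes of regulators linked to *Txnip* and glucose entry had a median of 0.05 in GFP+ over GFP+/- cells. *Vdr* encodes the vitamin D receptor, whose ligand raises *Txnip* and gave it its older name *Vdup1*. Its signals were 324.4 and 336.9 in GFP+ cells, 258.3 and 200.1 in GFP+/- cells and 254.1 in NT cells (0.54, adjusted p = 0.369), with both GFP+ arrays above the rest. *Slc2a1*, the glucose carrier GLUT1, had 1202 and 1379, 1765 and 1851, and 1189 (-0.49, adjusted p = 0.288), with GFP+ cells close to NT cells. *Hk1*, a hexokinase, and *Arrb2*, an arrestin of receptor signalling, differed by 0.05 each in GFP+ over GFP+/- cells (adjusted p = 0.945 and 0.943). Neither *Mlx* nor *Mlxipl*, whose products carry the glucose signal to *Txnip*, had a probe set.

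In GFP+ over NT cells 3 of the 64 further genes rose, beside 4.38% of all probe sets, and 2 fell, beside 4.06%. In GFP+/- over NT cells 4 rose, beside 4.20%, and 2 fell, beside 5.03%. *Cp*, encoding the copper ferroxidase ceruloplasmin, had 591.5 and 567.6 in GFP+ cells, 483.1 and 379.9 in GFP+/- cells and 71.1 in NT cells, and rose by 3.03 in GFP+ (limma adjusted p = 0.00808) and 2.59 in GFP+/- over NT cells (adjusted p = 0.0109). A second *Cp* probe set gave 2.73 and 3.15, and the last one -0.13 in both. *Cyba*, a membrane subunit of the NADPH oxidase, had 318.4 and 325 in GFP+ cells, 669.5 and 575.6 in GFP+/- cells and 42.1 in NT cells, and rose by 2.94 (adjusted p = 0.00808) and 3.88 (adjusted p = 0.00655). *Mt3*, a metallothionein of brain, rose by 1.27 (adjusted p = 0.0252) and 1.76 (adjusted p = 0.0141).

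*Idh1*, the cytosolic isocitrate dehydrogenase that makes NADPH, had 2623 and 2423 in GFP+ cells, 1948 and 1871 in GFP+/- cells and 8336 in NT cells. It fell by 1.73 in GFP+ (limma adjusted p = 0.0141) and by 2.13 in GFP+/- over NT cells (adjusted p = 0.0109), while a second, dim *Idh1* probe set had differences of 1.89 and 0.14. *Idh2*, its mitochondrial counterpart, had 3006 and 3708, 5009 and 4670, and 2025, and rose by 1.26 in GFP+/- over NT cells (adjusted p = 0.0293) but did not pass in GFP+ cells (0.72, adjusted p = 0.116). A second bright *Idh2* probe set had smaller differences of 0.81 in GFP+/- and 0.215 in GFP+ over NT cells. *Prdx3*, the mitochondrial peroxidase reduced by mitochondrial thioredoxin, had 608.7 and 668.7, 649.9 and 647.5, and 1360, and fell by 1.09 (adjusted p = 0.0335) and 1.07 (adjusted p = 0.0329). Its other probe set had -0.70 in GFP+ and -0.96 in GFP+/- over NT cells. With any 1 GFP+ or GFP+/- array left out, 0 of the 64 were called in GFP+ over NT cells and 0 to 4 in GFP+/- over NT cells. The *Gapdh* ratio and the erythroid markers set NT cells apart here too, and their part was not tested.

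**Figure D4:**
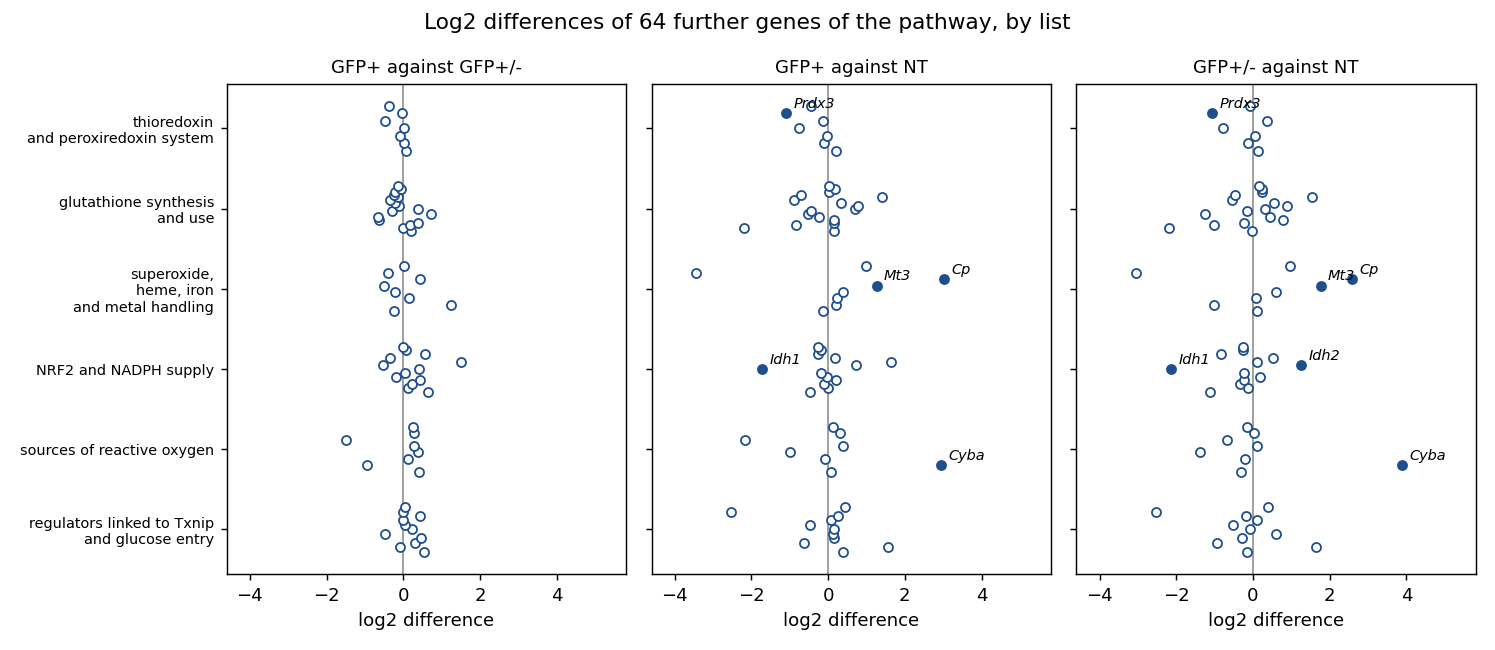
Log2 difference (horizontal axis) of 64 further genes, each from its brightest probe set and grouped by list (vertical axis), in GFP+ over GFP+/- (left), GFP+ over NT (middle) and GFP+/- over NT cells (right). Filled, named points passed limma at an adjusted p of 0.05; there are 0 in the left panel, 5 in the middle and 6 in the right.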

How the data were processed

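The authors hybridized RNA of GFP+, GFP+/- and NT cells to Affymetrix rat oligonucleotide arrays and summarised each probe set with MAS 5.0 as a linear signal intensity, scaled by one factor per array. The deposited signals had a trimmed mean of 500.8 to 501.0 on each array, whereas the methods name another target. The scanner's probe values and detection calls were not used here. Arrays carry no read depth, so their number limits the precision.

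The 59 control probe sets among 8799 were dropped. Signals under 1 (143 values) were set to 1 before log2. One fit of all 5 arrays with limma 3.58.1 in R 4.3.3, one mean per population and an intensity trend, gave the tests, with Benjamini-Hochberg adjustment of p over 8740 probe sets. NT cells have 1 array, so their spread was taken to equal that of the other populations. The fit was tested on simulated data. Python 3.11.15 (matplotlib 3.10.9, numpy 2.4.6, pandas 2.3.3) was used for tables and plots.

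The members and lists were chosen with earlier results of these data known. Of each list, up to 4 genes past the threshold in a comparison were to be named, and otherwise the 3 with the highest mean signal. *Txn2*, *Prdx2*, *Gpx4*, *Gstm2*, *Ggt1*, *Nfe2l2*, *Ephx1* and *Vdr* fall outside that rule and were named after their values were seen. Alternatives were quantile normalization, equal medians, 16 added to each signal, the brightest 41% alone, a prior without a trend, the GFP+ and GFP+/- arrays alone, a replicate block, each array left out, and a gene's probe sets averaged.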

Additional observations from a re-analysis of the deposited data

How the results depend on the processing

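In GFP+ over GFP+/- cells, the 17 probe sets and 64 further genes gave 0 calls under each alternative that kept every array of both. Beside this, 0.00% of all 8740 probe sets passed in the main fit and 4.02% among the brightest 41%. These 0 calls are therefore no result about the genes. For the other alternatives, and for the changed counts below, no share over all probe sets was taken. The 2 calls in GFP+ over NT cells became 1 with quantile normalization, 0 with equal medians, 0 without the trend and 0 to 0 with an array left out, and the 2 in GFP+/- over NT cells became 0 without the trend and 0 to 0 with an array left out. The 5 further genes called in GFP+ over NT cells became 8 with 16 added, 9 among the brightest 41%, 0 without the trend, 2 with a gene's probe sets averaged and 0 to 0 with an array left out. The 6 in GFP+/- over NT cells became 10 among the brightest 41%, 0 without the trend and 0 to 4 with an array left out. Leaving out an array left 1 residual degree of freedom in place of 2. The 7 probe sets with both GFP+ above both GFP+/- arrays became 4 with equal medians and 8 to 11 with an array left out. Leaving out an array can only raise this count, and no share over all probe sets was taken under these alternatives. With a replicate block the calls against NT cells were 3 and 3, and 7 and 8 for the further genes; nothing in the labels says that a number marks a shared batch, and same-numbered arrays deviated together with r = 0.063 over all probe sets and 0.197 over the brightest 41%, from only 2 pairs.

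With the mean of its probe sets *Txnip* was 1.98 above GFP+/- and 1.82 above NT cells on the log2 scale. Signs turned only where no call was made. With the mean of probe sets these were *Txnrd1* (-0.11), *Gclm* (-0.017) and *Nqo1* (-0.71) in GFP+/- over NT cells, *Cat* in GFP+ over GFP+/- (0.18), GFP+ over NT (0.21) and GFP+/- over NT cells (0.031), and *Gpx1* in GFP+ over GFP+/- cells (0.013). With quantile normalization and equal medians *Cat* in GFP+/- over NT cells was 0.098 and 0.11. With an array left out, the ranges that crossed 0 were *Txnrd1* (lowest -0.066), *Gclm* (lowest -0.020) and *Cat* (-0.26 to 0.25) in GFP+/- over NT cells, *Hmox1* (-0.16 to 0.10) and *Cat* (-0.56 to 0.41) in GFP+ over GFP+/- cells, and *Gclc* (-0.62 to 1.45), *Sod2* (-0.16 to 0.12) and *Cat* (-0.56 to 0.41) in GFP+ over NT cells. The cause was not tested.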
